A study of Mus musculus with 12 samples.

Results

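The set described here holds 10 immediate early genes, chosen by name as genes induced by neuronal activity and found by symbol: Arc; the AP-1 subunits Fos, Fosb and Junb; the zinc finger factors Egr1, Egr2, Egr3 and Egr4; Npas4; and Nr4a1. All 10 are among the 13951 genes of the deposited table. They were measured in Angelman syndrome (AS) and wild-type (WT) mice, in 4 groups of 3 C57BL/6J mice, all 12 to 16 weeks old: AS females, WT females, AS males and WT males. One library of polyadenylated RNA was made per mouse, using the right ventral hippocampus. The labels do not say which mutation makes a mouse AS, or how the mice were handled before dissection. The title of the series speaks of sex-dependent sensory phenotypes, and the first comparisons ask whether these genes differ by genotype in each sex.

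Immediate early genes are the genes that neurons transcribe first after activity, before any new protein has to be made. Calcium entry and growth factor signals reach transcription factors that already wait at these genes, among them CREB at cyclic AMP response elements (CRE) and SRF with its partners at CArG boxes, and transcription starts within minutes. Many of the products are themselves transcription factors that switch on a later wave of synaptic genes, while Arc acts at the synapse, where it promotes the removal of AMPA-type glutamate receptors. In the hippocampus these transcripts are widely used as a record of recent neuronal activity. The ventral hippocampus in particular is known for its part in anxiety and emotional behaviour. Angelman syndrome results from loss of the maternal UBE3A gene, which encodes a ubiquitin ligase that has been linked to Arc levels in mouse neurons.

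Levels are given as log2(abundance + 1), where the abundance is an RSEM estimate taken to be scaled for gene length, from a table read as natural logs. A table written in base 2 would shrink all log2 differences to 0.693 of their printed size. The table gives no read counts, so the depth behind each value is unknown. The 6 pan-neuronal markers had a mean level of 7.78 to 8.09 in the 12 libraries, and the 10 pyramidal and granule cell markers had a mean level of 5.17 to 5.56. The 10 markers of the choroid plexus, the ventricular tissue beside the hippocampus, varied far more. Their mean level was 5.84 in replicate 2 of the AS females, 3.78 in replicate 2 of the AS males, and 5.01 and 6.06 in replicates 1 and 2 of the WT females. It lay between 1.57 and 2.33 in the remaining 8 libraries. In 1 library Xist went against the label, while Y-linked genes did not. Xist, the RNA that silences an X chromosome in female cells, stood at 0.35 in WT female replicate 1, against 6.00 to 6.45 in the other 5 female libraries and 0.17 to 0.52 in the males. The mean of 4 Y-linked genes in that library was 0.68, within the 0.24 to 0.93 of the other females and below the 3.86 to 4.19 of the males. For the 10 genes, the counts of signs and the medians in comparisons that involve WT females are therefore also given without it. Counts of non-overlap, other gene lists, markers and correlations are not given without that library alone.

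On a scale taken to be per length, Egr1 and Arc were the most abundant of the 10 genes, with mean abundances of 34.3 and 29.4 over the 12 libraries. Nr4a1 followed at 20.1, Junb at 17.9, Egr3 at 14.7, Fos at 11.1 and Egr4 at 5.56. Npas4 at 3.58 and Fosb at 3.57 could not be told apart, since Npas4 was the higher of the pair in 7 of 12 libraries. Egr2 came last at 1.64. Neighbours in this order differed in the same direction in all 12 libraries for Arc over Nr4a1, Fos over Egr4, Egr4 over Npas4 and Fosb over Egr2. The order was less firm for Egr1 over Arc, Junb over Egr3 and Egr3 over Fos, each of which held in 9 of 12 libraries, and Nr4a1 lay above Junb in 11.

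The upstream sequences of 5 of the genes are shown as examples. Whether they bear on the shared variation from mouse to mouse, described below, was not tested. Fos and Junb were the most tightly correlated pair, Nr4a1 had the highest Pearson's r with Arc over the 12 libraries, Npas4 had the largest share of its variance between groups, and Egr2 carries a CArG box. Each line gives the 250 bases before a gene start listed by RefSeq on GRCm38.p6, in the direction of transcription. The windows of Egr2, Npas4 and Nr4a1 lie inside the gene spans given further below, which begin farther upstream. The intervals are chr12:85473640-85473889 on the plus strand for Fos and chr8:84978749-84978998 on the minus strand for Junb. They are chr10:67537620-67537869 on the plus strand for Egr2 (1 of the starts that RefSeq lists), chr19:4989972-4990221 on the minus strand for Npas4 and chr15:101266596-101266845 on the plus strand for Nr4a1. Capitals mark the CRE core TGACG on either strand, which reads CGTCA on the other strand, and in Egr2 also a CArG box.
Fos: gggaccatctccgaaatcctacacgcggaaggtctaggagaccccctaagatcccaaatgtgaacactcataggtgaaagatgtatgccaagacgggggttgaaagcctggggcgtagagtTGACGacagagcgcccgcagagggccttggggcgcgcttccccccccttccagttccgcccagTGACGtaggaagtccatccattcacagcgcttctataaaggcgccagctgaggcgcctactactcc
Junb: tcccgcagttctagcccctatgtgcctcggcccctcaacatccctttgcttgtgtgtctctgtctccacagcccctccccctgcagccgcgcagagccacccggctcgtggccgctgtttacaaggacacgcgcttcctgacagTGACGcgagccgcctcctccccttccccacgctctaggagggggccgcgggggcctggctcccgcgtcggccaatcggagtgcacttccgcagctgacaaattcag
Egr2: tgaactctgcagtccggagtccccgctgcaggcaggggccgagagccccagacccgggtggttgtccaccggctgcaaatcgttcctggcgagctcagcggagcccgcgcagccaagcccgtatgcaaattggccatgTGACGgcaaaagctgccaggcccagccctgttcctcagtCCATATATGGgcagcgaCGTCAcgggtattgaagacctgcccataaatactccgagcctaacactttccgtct
Npas4: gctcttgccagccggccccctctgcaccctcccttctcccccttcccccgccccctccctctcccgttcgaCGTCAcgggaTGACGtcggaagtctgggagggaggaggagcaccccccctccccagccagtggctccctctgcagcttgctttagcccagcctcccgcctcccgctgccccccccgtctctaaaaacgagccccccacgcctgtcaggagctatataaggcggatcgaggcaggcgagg
Nr4a1: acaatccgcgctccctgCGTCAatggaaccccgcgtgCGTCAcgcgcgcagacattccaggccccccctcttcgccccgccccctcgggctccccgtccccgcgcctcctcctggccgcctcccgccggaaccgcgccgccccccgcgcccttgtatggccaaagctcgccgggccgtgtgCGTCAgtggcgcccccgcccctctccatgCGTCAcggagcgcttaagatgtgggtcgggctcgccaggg
The core stood in the printed window of all 5 genes, once in Junb, 2 times in Fos, Egr2 and Npas4, and 4 times in Nr4a1. Fosb (chr7:19310046-19310295, minus strand) with 1 core and Egr4 (chr6:85513590-85513839, minus strand) with 2 brought this to 7 of the 7 genes with a promoter in the RefSeq table. For Egr2 the table lists 5 promoters, of which 3 hold the core, and the gene was counted by the printed one. Of all 32536 mouse promoters of the same length in that table, 17.9% held the core on either strand, a share per promoter and not per gene. The full palindrome TGACGTCA was found in 0 of the 7, against 1.56% of all promoters, and the CArG box in 1 of the 7, Egr2, against 1.48%. Arc, Egr1 and Egr3 had no promoter in that table, and sequence beyond the 250 bases was not searched. A motif not found here may therefore lie elsewhere at the gene. The core is contained in the full palindrome. A match of letters is a description of the window and not evidence of binding.

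Arc (ENSMUSG00000022602, chr15:74669083-74672570, minus strand, GRCm38), the synaptic effector of the set, differed little among females and widely among males. Its level was 4.98, 4.97 and 4.85 in AS females, against 4.72, 4.80 and 4.72 in WT females. In males it was 4.75, 3.85 and 5.41 in AS mice, against 4.85, 5.59 and 4.97 in WT mice. The 3 AS females all lay above the 3 WT females, while 2 AS males lay below all 3 WT males and the other lay above 2 of them. The group averages were 4.93 ± 0.07 in AS females and 4.75 ± 0.05 in WT females, then 4.67 ± 0.78 in AS males and 5.14 ± 0.40 in WT males (SD, n = 3 each). The difference in females was 0.19 ± 0.30 (SE), with a 95% interval of -0.48 to 0.85 and an adjusted p of 1.00 in limma. The SE and interval rest on a spread estimated over all 4 groups, so the wide spread among males enters them. In males it was -0.47 ± 0.30, with an interval of -1.14 to 0.19 and an adjusted p of 0.818 in limma. Without AS male replicate 2 the difference in males was -0.06. Without WT female replicate 1 the difference in females was 0.17. In tissue pieces such as these, fewer cells expressing a gene and less of its RNA per cell cannot be told apart.

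**Figure D1:**
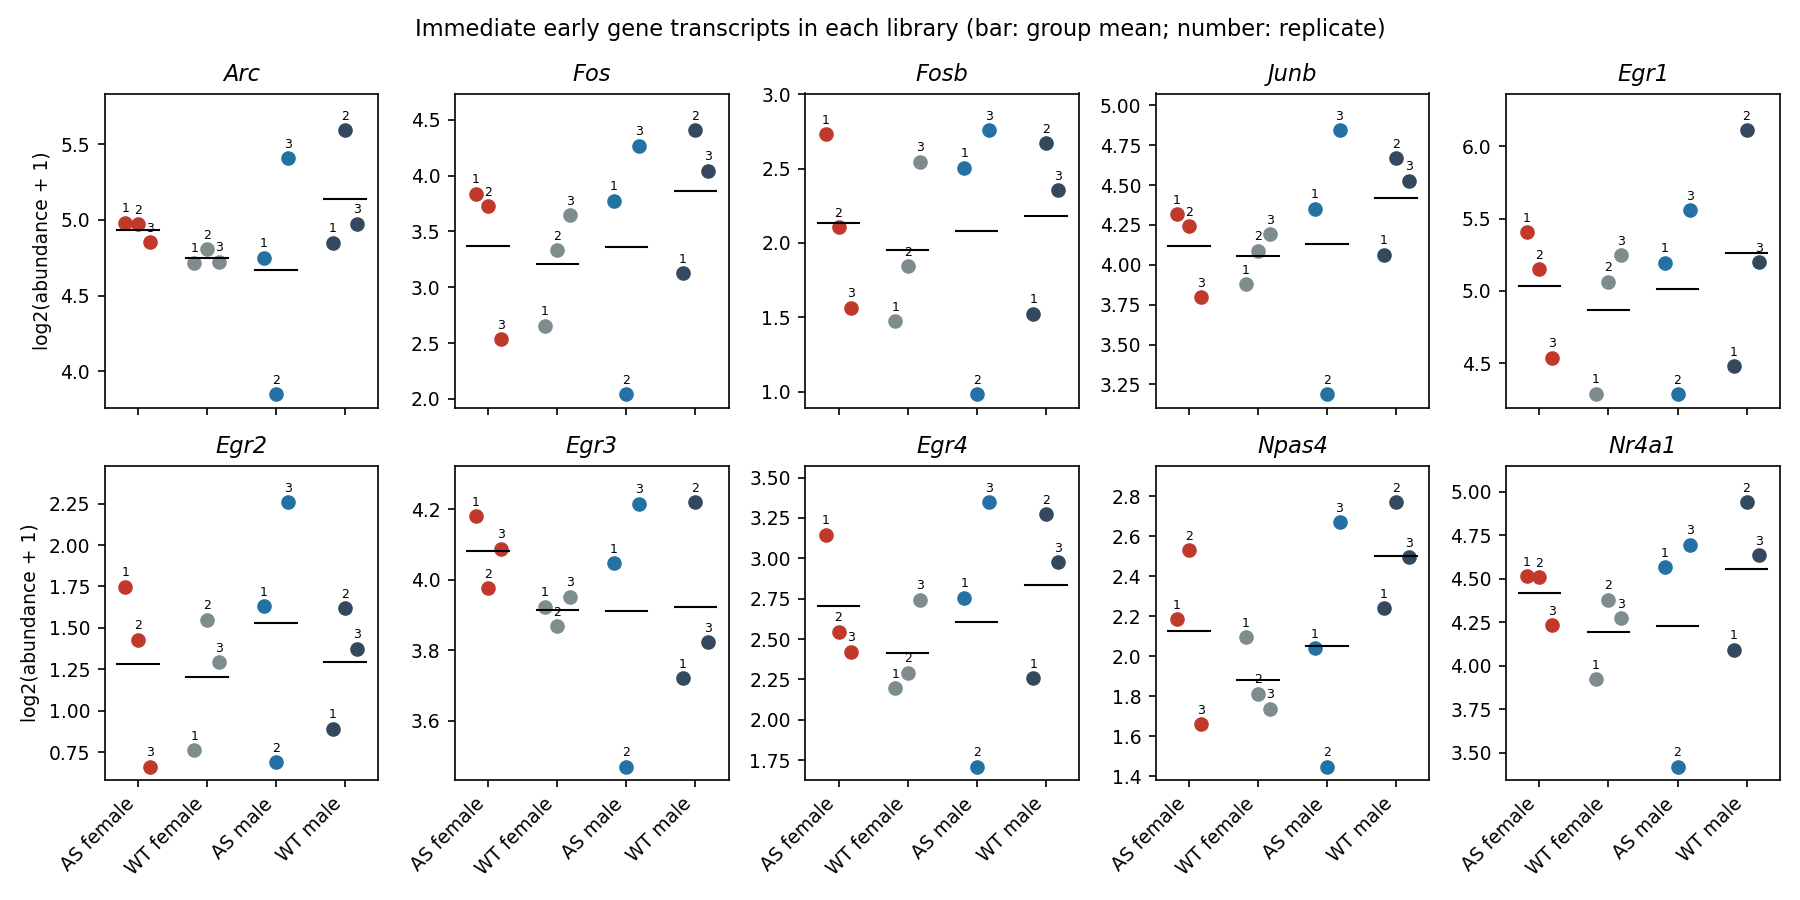
Level of each gene, as log2(abundance + 1), in the 12 libraries, with AS left of WT within each sex. Each point is 1 mouse, numbered by replicate, and the bar is the group mean. AS male replicate 2 is the lowest point for 9 of the 10 genes, and WT male replicate 2 or AS male replicate 3 is the highest for each.

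Fos (ENSMUSG00000021250, chr12:85473890-85477273, plus strand), the AP-1 subunit most used as a marker of activated neurons, had the widest range of the 10 genes. It stood at 3.84, 3.72 and 2.53 in AS females and at 2.66, 3.33 and 3.64 in WT females. In males it stood at 3.77, 2.04 and 4.27 in AS mice and at 3.12, 4.41 and 4.04 in WT mice. As abundance, Fos was 3.11 in AS male replicate 2 and 20.2 in WT male replicate 2, a 6.50-fold range. The genotypes overlapped in both sexes, with differences of 0.15 ± 0.55 (SE) in females and -0.50 ± 0.55 in males, and the interval in males ran from -1.70 to 0.71. Junb (chr8:84974484-84978718, minus strand), a partner of Fos in AP-1, ranged less. Its level was 4.32, 4.24 and 3.80 in AS females, against 3.88, 4.09 and 4.19 in WT females, and 4.35, 3.19 and 4.85 in AS males, against 4.06, 4.67 and 4.53 in WT males. The differences for Junb were 0.07 ± 0.33 (SE) in females and -0.29 ± 0.33 in males. Fosb (chr7:19302696-19310051, minus strand), whose truncated product is known to build up with repeated stimulation, lay between 0.98 in AS male replicate 2 and 2.76 in AS male replicate 3. Its group averages were 2.13 ± 0.58 in AS females, 1.95 ± 0.55 in WT females, 2.08 ± 0.96 in AS males and 2.18 ± 0.59 in WT males (SD, n = 3 each).

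The Egr genes encode zinc finger factors that bind the same GC-rich element. Egr1 (chr18:34859823-34864984, plus strand), whose loss impairs long-lasting synaptic potentiation in mice, stood at 5.41, 5.15 and 4.54 in AS females, against 4.29, 5.06 and 5.25 in WT females. Its level in males was 5.20, 4.29 and 5.56 in AS mice, against 4.48, 6.11 and 5.20 in WT mice. The groups overlapped in both sexes, with differences of 0.16 ± 0.43 (SE) in females and -0.25 ± 0.43 in males. Egr1 alone among the 10 had its largest within-group SD in WT males. Egr3 (chr14:70077203-70082614, plus strand), which acts downstream of neuronal activity and can itself induce Arc in mouse neurons, had the narrowest range of the 10. It stood at 4.18, 3.98 and 4.09 in AS females, against 3.92, 3.87 and 3.95 in WT females, so that the genotypes did not overlap. In males its level was 4.05, 3.47 and 4.22 in AS mice, against 3.72, 4.22 and 3.82 in WT mice. The difference in females was 0.17 ± 0.17 (SE), with a 95% interval of -0.21 to 0.55 and an adjusted p of 1.00 in limma, and in males it was -0.01 ± 0.17. Egr4 (chr6:85511121-85513589, minus strand) averaged 2.70 ± 0.39 in AS females and 2.41 ± 0.29 in WT females, then 2.60 ± 0.83 in AS males and 2.83 ± 0.52 in WT males (SD, n = 3 each). Egr2 (chr10:67535475-67542188, plus strand), also known as a regulator of myelination in Schwann cells, was the gene with its lowest value in AS female replicate 3, at 0.66, and with an average above that of WT in AS males. Its averages were 1.28 ± 0.56 in AS females and 1.20 ± 0.40 in WT females, then 1.53 ± 0.79 in AS males and 1.29 ± 0.37 in WT males (SD, n = 3 each).

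Npas4 (chr19:4984355-4990316, minus strand) encodes a factor induced almost solely by calcium entry, which in mouse neurons shapes inhibitory synapses. Its level was 2.19, 2.53 and 1.66 in AS females, against 2.10, 1.81 and 1.74 in WT females. In males it was 2.04, 1.45 and 2.67 in AS mice, against 2.24, 2.77 and 2.49 in WT mice. Of the 3 AS males 1 lay among the WT males and 2 lay below them. The genotype difference was 0.24 ± 0.29 (SE) in females and -0.45 ± 0.29 in males, with an interval in males of -1.09 to 0.19. Nr4a1 (chr15:101254269-101274795, plus strand), an orphan nuclear receptor, stood at 4.51, 4.51 and 4.23 in AS females, against 3.92, 4.38 and 4.27 in WT females. In males it stood at 4.57, 3.42 and 4.70 in AS mice, against 4.09, 4.94 and 4.63 in WT mice. Its genotype difference was 0.23 ± 0.30 (SE) in females and -0.33 ± 0.30 in males, and the groups overlapped in both sexes.

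In the fit across all 13858 genes tested, 0 of the 10 genes passed an adjusted p under 0.05 for genotype in either sex, with limma and Benjamini-Hochberg adjustment. The share of all genes that passed was 0.00% in females and 0.00% in males. At an unadjusted p under 0.05 the count was again 0 of 10 in both sexes, against 3.16% of all genes in females and 6.42% in males. The spread behind these tests was shared by the 4 groups and does not measure the spread among females alone. In a fit of only the females the SE was 0.07 for Egr3 and 0.15 for Junb, in place of 0.17 and 0.33. The smallest adjusted p of the 10 genes in that fit was 0.986 in limma. In females the difference was above 0 for 10 of 10 genes, against 51.6% of all genes, and ran from 0.07 for Junb to 0.29 for Egr4, with a median of 0.17 against 0.00 for all genes. For 2 of the 10 genes, Arc and Egr3, every AS female lay above every WT female, which was the case for 4.99% of all genes. The 10 genes are correlated across mice, so that 10 like signs are not 10 separate observations. Without WT female replicate 1, the library with little Xist, the difference was above 0 for 5 of 10 genes and the median was 0.04. It was then 0.35 for Npas4, 0.19 for Egr4, 0.17 for Egr3 and for Arc and 0.09 for Nr4a1, and between -0.14 and -0.02 for the other 5. Without AS female replicate 1 it was above 0 for 5 of 10 and the median was 0.03. A fit without the 4 libraries highest in choroid plexus markers, which leaves 1 WT female assumed to vary like the other groups, gave 5 of 10 above 0 and a median of -0.02. With the mean choroid plexus level as covariate, 6 of 10 were above 0 and the median was 0.06. With each library left out in turn, the difference in females stayed above 0 for Arc (0.16 to 0.23), Egr3 (0.12 to 0.22), Egr4 (0.07 to 0.46), Npas4 (0.04 to 0.48) and Nr4a1 (0.09 to 0.32). Some lists of cell type markers had like signs in females too. Choroid plexus markers were lower in AS females for 10 of 10 (median -1.01). Oligodendrocyte markers were higher for 6 of 6 (median 0.22) and pan-neuronal markers for 6 of 6 (median 0.04). Other lists were mixed or lower. Pyramidal and granule cell markers were higher for 5 of 10 (median 0.01), endothelial markers for 5 of 8 (0.01) and microglia markers for 5 of 7 (0.07). Astrocyte markers were higher for 1 of 6 (median -0.06) and interneuron markers for 1 of 7 (-0.17). Of all these markers 0 passed in limma. Their part in the result was not tested.

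In males the difference was below 0 for 9 of 10 genes, against 47.6% of all genes, and Egr2 was the exception at 0.23 ± 0.40 (SE). The values ran from -0.50 to 0.23 with a median of -0.27, and adjusted p-values in limma lay between 0.818 and 0.994. The count of genes whose AS and WT males did not overlap was 0 of 10, against 11.2% of all genes in either direction. The sign in males rested on AS male replicate 2. Without that library the difference was above 0 for 8 of 10 genes, with a median of 0.17, and Arc and Npas4 were the genes that stayed below 0, at -0.06 and -0.15. Without WT male replicate 2 it was below 0 for 6 of 10, with a median of -0.07. With the mean choroid plexus level as covariate it was below 0 for 8 of 10, with a median of -0.22. AS male replicate 2 is also among the 4 libraries highest in choroid plexus markers, and it had the lowest pan-neuronal mean, 7.78. Across AS males as a group, choroid plexus markers were higher than in WT males for 10 of 10 (median 0.48). Pan-neuronal markers were lower for 6 of 6 (median -0.08). Pyramidal and granule cell markers were lower for 5 of 10 (median -0.02), interneuron markers for 5 of 7 (-0.07) and endothelial markers for 6 of 8 (-0.08). Astrocyte markers were lower for 1 of 6 (median 0.08), oligodendrocyte markers for 1 of 6 (0.08) and microglia markers for 3 of 7 (0.04). Of all these markers 0 passed in limma. Their part in the result was not tested.

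**Figure D2:**
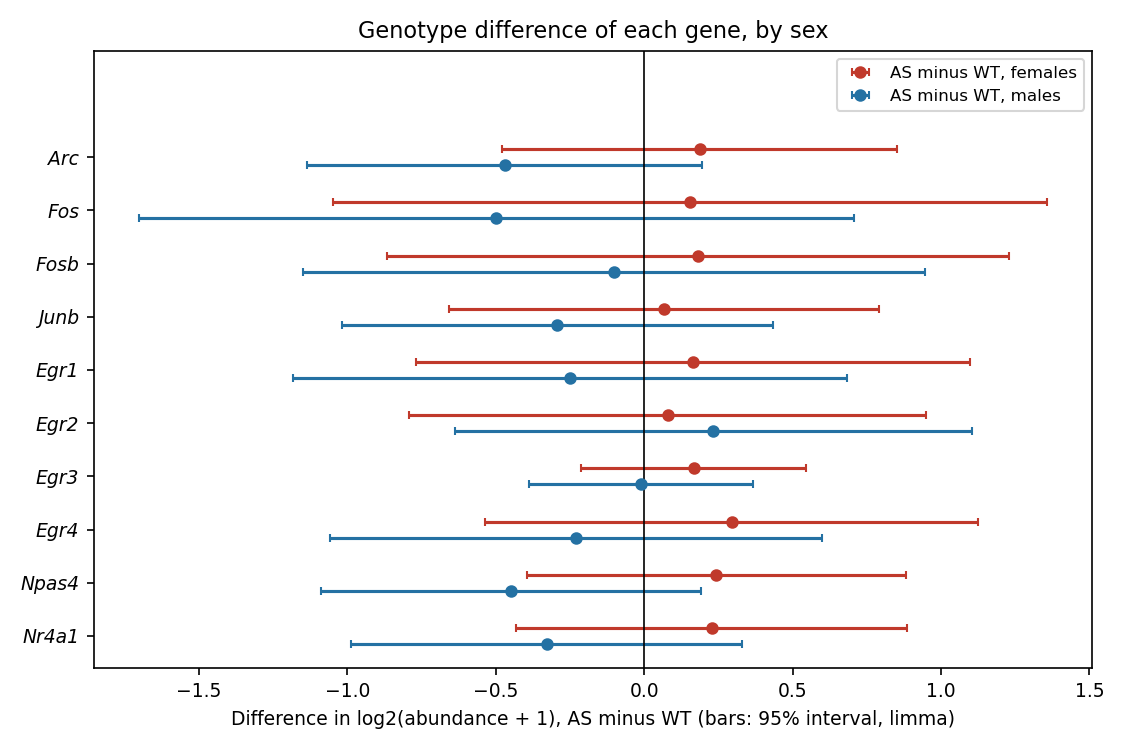
Difference between AS and WT mice in log2(abundance + 1) for each gene, in females (red) and males (blue), with 95% intervals from limma. Every interval includes 0. The points lie above 0 for 10 of 10 genes in females and below 0 for 9 of 10 in males.

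The difference between the sexes in the genotype effect was tested directly. The interaction, male minus female, was -0.66 ± 0.43 (SE) for Arc and -0.69 ± 0.41 for Npas4, each with an adjusted p of 0.987 in limma. It was below 0 for 9 of 10 genes, against 49.5% of all genes, and 0 of 10 passed the adjusted threshold, against 0.00% of all genes. The count at an unadjusted p under 0.05 was 0 of 10, against 3.77% of all genes. Without AS male replicate 2 the interaction was below 0 for 5 of 10, with a median of -0.02 in place of -0.47. Without the 4 libraries highest in choroid plexus markers, which leaves 1 WT female, the interaction was above 0 for 7 of 10 (median 0.24). With the mean choroid plexus level as covariate it was below 0 for 8 of 10, with a median of -0.23. Without WT female replicate 1 it was below 0 for 9 of 10, with a median of -0.32. Over both sexes together the genotype difference was above 0 for 4 genes and below 0 for 6, between -0.17 and 0.16, where 47.3% of all genes were below 0, with adjusted p-values of 0.977 to 0.995 in limma. Again 0 of 10 passed, against 0.00% of all genes, and 0 of 10 had an unadjusted p under 0.05, against 5.35%. This split also turned on AS male replicate 2, without which the difference was above 0 for 10 of 10 genes, with a median of 0.16 in place of -0.05. With library quality weights it was above 0 for 10 of 10 as well, with a median of 0.19. With the mean choroid plexus level as covariate it was below 0 for 8 of 10, with a median of -0.08. Without WT female replicate 1 it was above 0 for 2 of 10, with a median of -0.10.

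WT mice of the 2 sexes were also set side by side. Levels averaged higher in WT males than in WT females for 10 of 10 genes, against 51.2% of all genes, with differences of 0.01 for Egr3 to 0.65 for Fos and a median of 0.38. The count that passed was 0 of 10 in limma, against 0.0289% of all genes, and 0 of 10 had an unadjusted p under 0.05, against 7.70%. Npas4 and Arc did not overlap between the sexes, as was so for 8.12% of all genes in this direction. Npas4 averaged 2.50 ± 0.27 in WT males and 1.88 ± 0.19 in WT females (SD, n = 3 each), a difference of 0.62 ± 0.29 (SE) with an adjusted p of 0.66 in limma. For Arc the difference was 0.39 ± 0.30. Without WT female replicate 1 the difference was above 0 for 8 of 10 genes with a median of 0.26, and without WT male replicate 2 for 6 of 10 with a median of 0.17. Choroid plexus markers moved the other way here, with a mean of 1.90 ± 0.18 in WT males and 4.47 ± 1.92 in WT females (SD, n = 3 each), and 10 of 10 lower in males. Their part in the result was not tested. Without the 4 libraries highest in these markers, which leaves 1 WT female, the median was 0.15. With the mean choroid plexus level as covariate, the difference was above 0 for 6 of 10 genes and the median was 0.11. Among AS mice the difference between males and females was above 0 for 2 genes and below 0 for 8, between -0.27 for Arc and 0.25 for Egr2, and 48.5% of all genes were below 0. Here 0 of 10 passed in limma, against 0.0361% of all genes, and 0 of 10 had an unadjusted p under 0.05, against 3.63%. Without AS male replicate 2 the difference was above 0 for 10 of 10, with a median of 0.35 in place of -0.06. It was above 0 for 9 of 10 with library quality weights (median 0.21), and for 9 of 10 without the 4 libraries highest in choroid plexus markers (median 0.42). With the mean choroid plexus level as covariate it was below 0 for 9 of 10 (median -0.195).

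Mice of the same group differed widely in these genes. The within-group SD ran from 0.24 for Egr3 to 0.80 for Fos, against a median of 0.14 over all genes tested. For 9 of the 10 genes it exceeded that of 90% of all genes, and for Egr3 that of 82.4%. The share of the variance that lay between the 4 groups was 2.24% for Fosb and 31.4% for Npas4, the lowest and highest of the set. Fitting 4 means to 12 libraries takes up part of the variance even where groups do not differ. These shares alone therefore show no group effect. The highest library exceeded the lowest by 1.75-fold in abundance for Egr3 and by 6.50-fold for Fos. AS males had the largest SD of the 4 groups for 9 of the 10 genes. Each such SD rests on 3 mice, and the genes are correlated, so these are not 9 separate observations. The share of all genes for which this held is not given here.

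**Figure D3:**
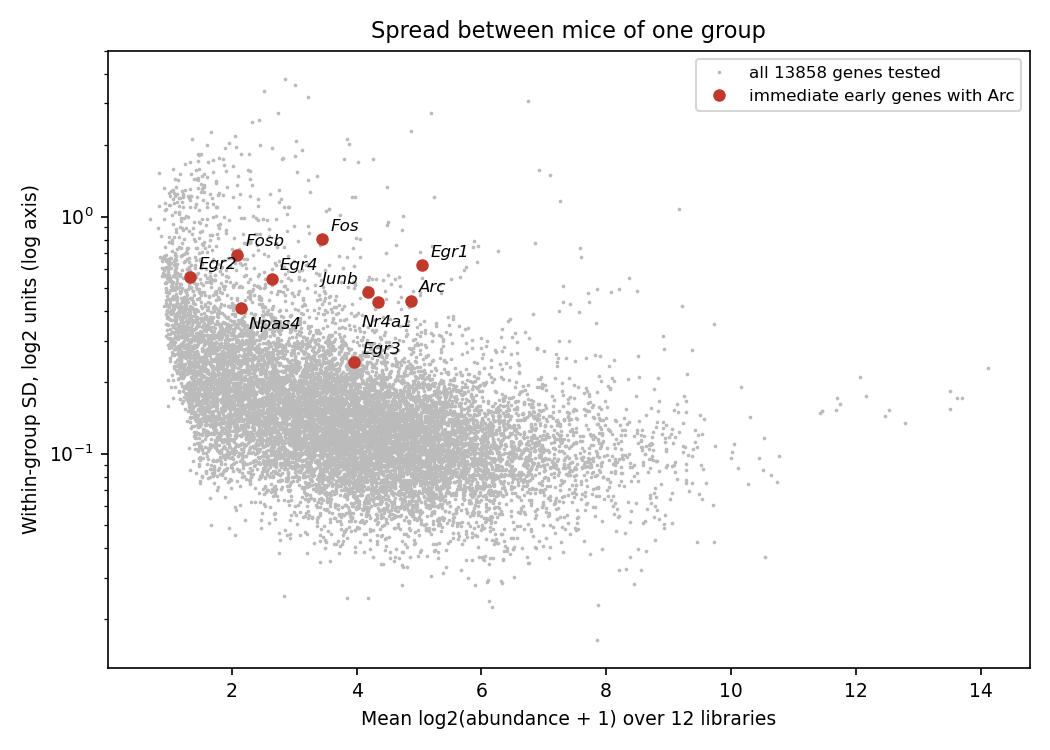
Within-group SD in log2 units (log axis) against the mean log2(abundance + 1) over the 12 libraries, for all 13858 genes tested (grey) and the 10 immediate early genes (red). The red points lie above most grey points of like mean level, from 0.24 for Egr3 to 0.80 for Fos.

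The spread was shared, in that the same mice were high or low for nearly all of the genes. AS male replicate 2 was among the 3 lowest libraries for 10 of 10 genes and was the lowest for 9. AS male replicate 3 was among the 3 highest for 10 genes, WT male replicate 2 for 9 and AS female replicate 1 for 6. WT female replicate 1 was among the 3 lowest for 8. The mean level of the 10 genes was 3.70, 3.52 and 3.04 in AS females, against 2.99, 3.30 and 3.43 in WT females. In males it was 3.56, 2.51 and 4.00 in AS mice, against 3.12, 4.03 and 3.64 in WT mice. Both genotypes thus held mice at the high end and at the low end.

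Across the 12 libraries the 45 pairs of genes correlated with Pearson's r of 0.54 to 0.96, with a median of 0.84, and with Spearman's rho of 0.45 to 0.99, with a median of 0.80. After Benjamini-Hochberg adjustment over the 45 pairs, 44 passed a permutation test of Pearson's r and 43 a permutation test of Spearman's rho (two-sided, 100000 resamples). Fos and Junb had the highest r, 0.96, with rho of 0.99, and their raw permutation p of 1e-05 for each is the smallest that these resamples can give (adjusted p = 0.000112 for r and 9e-05 for rho). Arc had r of 0.90 with Nr4a1 (permutation p = 5e-05, adjusted p = 0.000187), with rho of 0.81 (permutation p = 0.00203, adjusted p = 0.00435). Its r with Junb was also 0.90, its rho was highest with Egr4, at 0.82, and with values centred on group means its r was highest with Egr3, at 0.94, so that no one gene stood closest to Arc. Arc followed Egr2 least, with r of 0.65 (permutation p = 0.0188, adjusted p = 0.0212) and rho of 0.61 (permutation p = 0.0405, adjusted p = 0.0456). Egr3 and Npas4, with r of 0.54, did not pass (permutation p = 0.0698, adjusted p = 0.0698), nor did they by rho of 0.45 (permutation p = 0.147, adjusted p = 0.147). The median r of a gene with the other 9 was highest for Fos, at 0.92, and lowest for Npas4, at 0.73, with Arc at 0.83.

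**Figure D4:**
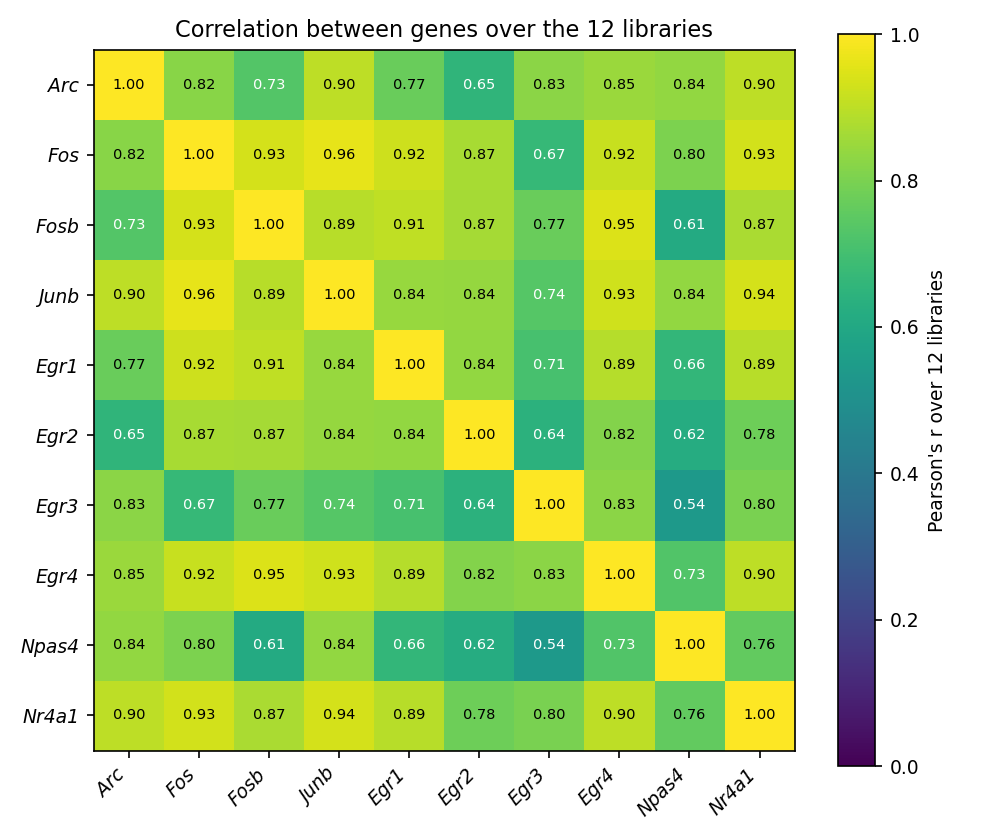
Pearson's r between each pair of the 10 genes over the 12 libraries, from 0 (dark) to 1 (yellow). Fos and Junb share the highest value, 0.96, and Egr3 and Npas4 the lowest, 0.54.

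With every value centred on the mean of its group, r was 0.64 to 0.96, with a median of 0.88. Fewer pairs passed without the mice at the ends of the range. Without the 2 libraries farthest from the median of the first gene of a pair, r had a median of 0.74 and 27 of 45 pairs passed by Pearson's r and 22 by Spearman's rho. Egr3 and Npas4 then had r of 0.09. Without the 4 libraries highest in choroid plexus markers, r had a median of 0.76 over 8 libraries, and 22 pairs passed by r and 13 by rho in an exact permutation test.

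The genes outside the set whose level followed it most closely were found by Pearson's r with the scaled mean of the 10 genes over the 12 libraries, as a description. The first 10 were Pim3 (r of 0.92), Per1 (0.90), Nppc (0.89), Plk3 (0.89), Fam20a (0.87), Rnf187 (0.86), Grm3 (0.86), Ppp5c (0.86), Ticam1 (0.85) and Ckb (0.85). Per1, a circadian clock gene, and Plk3, a polo-like kinase gene, belong to a list of 38 other immediate early genes, 36 of which were tested. That list, like those below, was chosen with earlier results of these data known. In it 13 of 36 genes, or 36.1%, had r over 0.7, against 270 of the 13848 genes outside the set, or 1.95%. They include Dusp5, which encodes a phosphatase of ERK, with r of 0.84, Trib1 with 0.82, Ier2 with 0.79, the nuclear receptor gene Nr4a2 with 0.78 and the kinase gene Sik1 with 0.76. Of 19 later activity-regulated genes 2 had r over 0.7, namely Gpr3 with 0.79 and the neuropeptide precursor gene Vgf with 0.77. Of 31 genes for the factors and kinases that induce immediate early genes, such as Creb1 and Srf, 0 did. Of 11 genes for partners and repressors of the encoded proteins 2 did. The median r was 0.53 for the 6 pan-neuronal markers, of which Tubb3 reached 0.83. For the 10 pyramidal and granule cell markers it was 0.02, and for the 7 interneuron markers 0.11, with 0 genes of either list over 0.7. It was -0.37 for the 10 choroid plexus markers and -0.49 for the 8 endothelial markers. Their part in the shared spread was not tested.

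**Figure D5:**
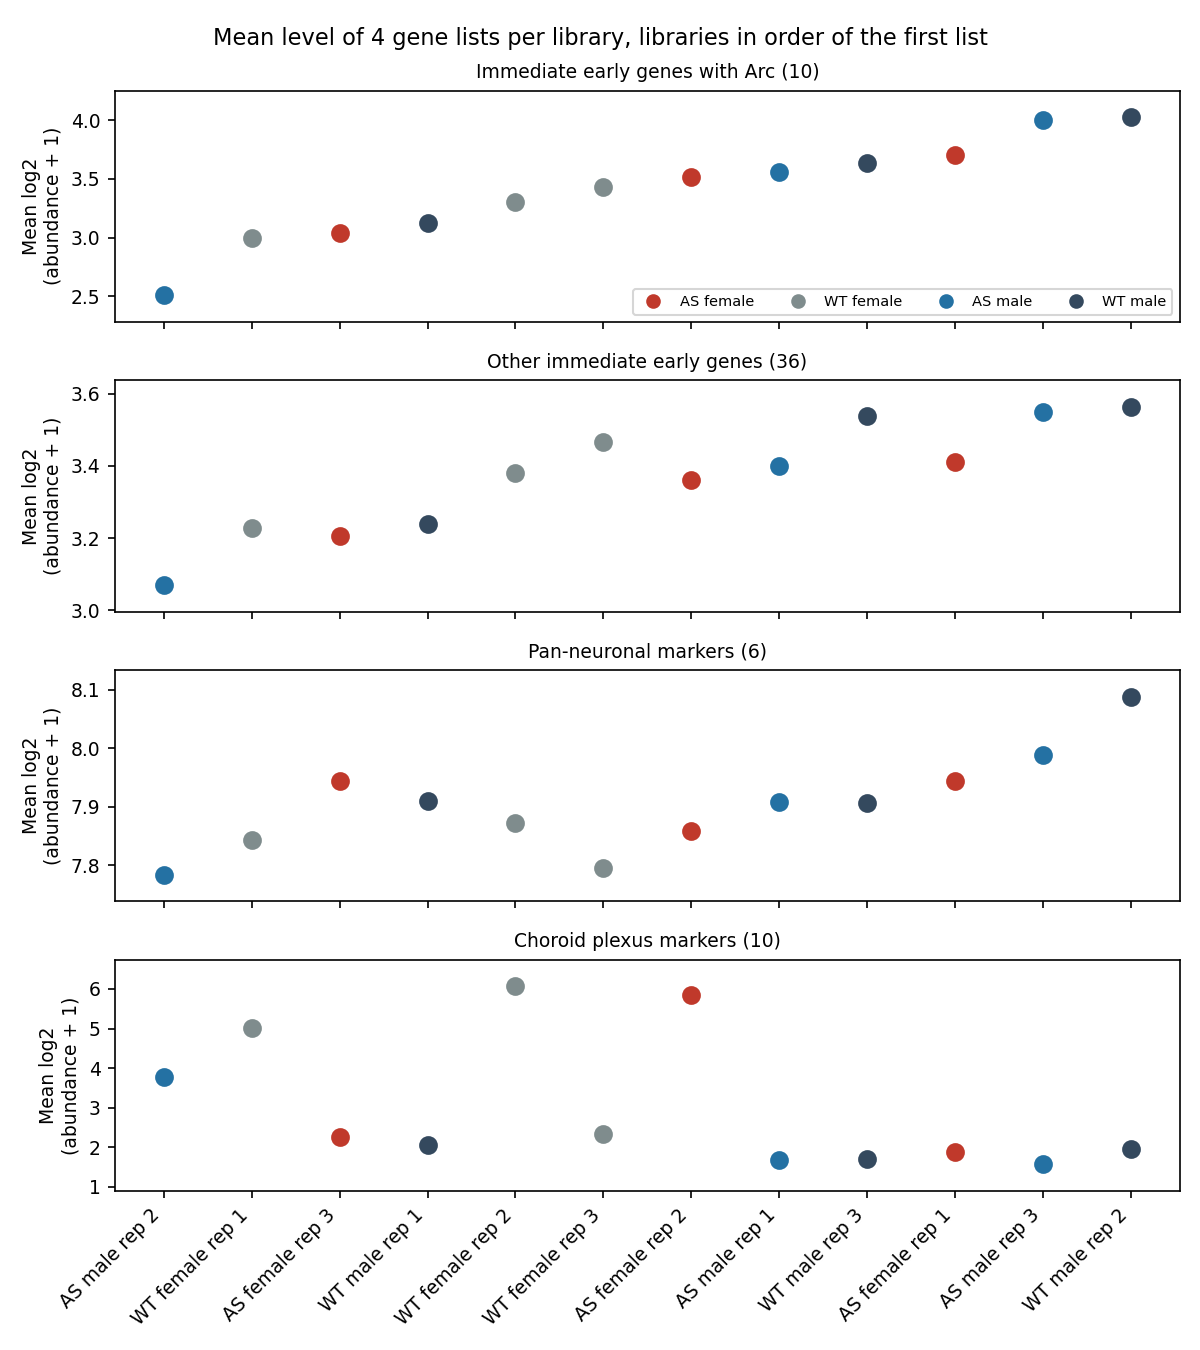
Mean log2(abundance + 1) of 4 gene lists in each library, with libraries ordered by the mean of the 10 immediate early genes in the top panel and coloured by group. The other immediate early genes climb in nearly the same order, from 3.07 in AS male replicate 2 to 3.56 in WT male replicate 2, while the choroid plexus markers are high in 4 libraries spread over the lower and middle part of the order.

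By genotype, the 36 other immediate early genes gave no call in limma in either sex. In females 15 were above 0 and 21 below, with a median of -0.03, and 1 had an unadjusted p under 0.05, where 51.6% of all genes were above 0 and 3.16% had such a p. This was Fbxo33, an F-box protein gene, at 0.25 ± 0.11 (SE, adjusted p = 1.00 in limma). In males 12 were above 0 and 24 below, where 47.6% of all genes were below 0, with a median of -0.11. The smallest p among these was that of Dusp1, which encodes a phosphatase of MAP kinases, at -0.62 ± 0.24 (SE, adjusted p = 0.763 in limma). Of the 19 later genes, 12 were above 0 and 7 below in females, where 51.6% of all genes were above 0. The 1 later gene with an unadjusted p under 0.05 in females, against 3.16% of all genes, was Sorcs3 at 0.23 ± 0.08 (SE). In males 10 were above 0 and 9 below, and 3 had an unadjusted p under 0.05, against 6.42% of all genes. They were the granin gene Scg2 at 0.37 ± 0.12, the neurotrophin gene Bdnf at 0.32 ± 0.11 and Cbln4, a synaptic organiser, at -0.55 ± 0.24 (SE), with adjusted p-values of 0.748 to 0.763 in limma. Among the 31 inducing factors and kinases, 26 were above 0 in females, against 51.6% of all genes, with a median of 0.07, and 14 in males, with a median of -0.03. At an unadjusted p under 0.05 stood 1 of 31 in females, Mrtfb, an SRF coactivator, at 0.15 ± 0.07 (SE), against 3.16% of all genes. In males 4 of 31 did, against 6.42%. These were Camk4, a calcium-dependent kinase that phosphorylates CREB, at -0.20 ± 0.08, the SRF coactivator Mrtfa at -0.20 ± 0.09, Mef2d at -0.16 ± 0.07 and, in the other direction, the kinase gene Rps6ka5 at 0.24 ± 0.10 (SE). Of the 11 partners and repressors, 6 were above 0 in females and 7 in males, with 0 at an unadjusted p under 0.05 in either sex. The lists share some members, and 0 genes of any of them passed the adjusted threshold for genotype.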

How the data were processed

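Per the submitters' processing notes, reads were handled with Trimmomatic, Bowtie2 and RSEM and the GRCm38 (mm10) mouse genome, without versions. The deposited values were read here as natural logs, ln(RSEM abundance + 1), which is an assumption, as is the scaling for gene length. Whether the abundance is TPM or FPKM, and the log base, constant, normalization and filter, are not given in the sources used here. Its values run from 0.100 to 10.08. In 1 library, 100% of the values from 2 to 5 recur in each of the 12 columns, against 15.7% of those from 0 to 1, so the middle of the range was read as quantile-normalized.

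Values were converted to log2(abundance + 1). A mean abundance of at least 1 was required, which dropped 93 genes and kept 13858, with all 10 of the set. The 12 libraries went into one model of 4 group means in limma 3.58.1 (R 4.3.3), with a trended variance prior and 8 residual degrees of freedom. P-values were adjusted by Benjamini and Hochberg's method across all genes tested, and calls needed an adjusted p under 0.05. No block was used, since replicate numbers follow accession order. Coordinates are those of GENCODE vM21 on GRCm38, which gave a symbol for 13735 identifiers. The script was tested on simulated data.

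All 10 genes are named, then the 10 other genes with the highest r to their mean, then up to 4 genes per list and contrast with the smallest p. The genes and lists were chosen with earlier results of these data known. Alternatives were other constants, filters and log base, fits of the compared groups, quality weights, renewed quantile normalization, no variance trend, a choroid plexus covariate, and libraries left out.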

Additional observations from a re-analysis of the deposited data

Results flagged for a closer look

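Among the 6 libraries of one genotype, 3 values of these genes stood apart by Dixon's criterion, with a gap to the nearest library above the 95% critical share of the whole range. Arc in WT male replicate 2 was 5.59, above the other 5 WT libraries. Egr3 was 3.47 and Nr4a1 was 3.42 in AS male replicate 2, each below the other 5 AS libraries. The criterion was applied to both ends of both genotypes for 10 genes, and chance alone flags about 1 in 20 such sets. These are the same libraries that stood at the ends of the range for most of the other genes, so the 3 values are not separate observations.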

How the results depend on the processing

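No paired analysis was possible because the replicate numbers were given in accession order and do not pair mice. Under every alternative 0 of the 10 genes passed the adjusted threshold, with smallest adjusted p-values in limma of 0.866 for genotype in females, 0.701 in males, 0.607 in both sexes together, 0.844 for the interaction, 0.478 for sex in WT and 0.768 for sex in AS. Some genotype differences within a sex changed sign, and the cause was not tested. Without the 4 libraries highest in choroid plexus markers, 1 WT female is left. The differences in females were then Fos -0.46, Junb -0.13, Egr2 -0.086, Egr1 -0.28 and Fosb -0.40, with a median over the 10 genes of -0.02. In males they were Fos 0.16, Junb 0.18, Egr3 0.21, Egr1 0.11, Egr4 0.22, Nr4a1 0.077 and Fosb 0.45, with a median of 0.17, which are the values without AS male replicate 2, the one male among these 4 libraries. With the mean choroid plexus level as covariate, values in females were Fos -0.012, Junb -0.052, Egr2 -0.0015 and Fosb -0.076, and Egr3 in males was 0.023. With library quality weights, values in males were Fos 0.11, Junb 0.12, Egr3 0.20, Egr1 0.16, Egr4 0.21, Nr4a1 0.038 and Fosb 0.40, with a median of 0.14.

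With 1 library left out in turn, the difference in females ran from -0.12 to 0.57 for Fos, -0.032 to 0.23 for Junb, -0.16 to 0.39 for Egr2, -0.12 to 0.41 for Egr1 and -0.12 to 0.48 for Fosb. In males it ran from -0.95 to 0.16 for Fos, -0.65 to 0.18 for Junb, -0.16 to 0.21 for Egr3, -0.13 to 0.65 for Egr2, -0.64 to 0.17 for Egr1, -0.60 to 0.22 for Egr4, -0.56 to 0.077 for Nr4a1 and -0.44 to 0.45 for Fosb.

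The number of all genes called moved too. Without the 4 choroid-high libraries it was 5 in females, 1 in males, 2 in both sexes together, 2 for the interaction and 7 for sex in WT. With 1 library left out it was 0 to 1 in females, 0 to 1 in males, 0 to 2 in both sexes together, 0 to 1 for the interaction, 4 to 8 for sex in WT and 2 to 8 for sex in AS. A mean abundance of at least 5 gave 2 for sex in WT and 3 in AS, log2(abundance + 0.1) gave 2 in AS, and a fit of only the groups compared gave 3 in AS. The stricter filter left out Fosb, Egr2 and Npas4, and base 2 left out Egr2. Correlated pairs numbered 44 of 45, 22 without the choroid-high libraries and 27 without the 2 farthest libraries.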
